A study of Mus musculus with 13 samples.

Results

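The genes described here are 8 parts of the adrenergic signalling chain of the heart. They are the receptors Adrb1, Adra1a and Adra1b, the receptor kinases Grk2 and Grk5, the arrestin Arrb1, and the adenylyl cyclases Adcy5 and Adcy6. They were taken by name, through their Ensembl IDs, from the 55471 genes of the deposited count table, and the choice was made with earlier results of these data known. All 8 were among the 15000 genes that passed a filter on low counts and were tested.

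The RNA of whole hearts was sequenced in bulk from mice of 3 kinds. R502W mavacamten (4 libraries) came from R502W mice that took mavacamten, an inhibitor of cardiac myosin, at 2.5 mg/kg/day in their drinking water for 21 weeks. R502W control (4 libraries) came from R502W mice without the drug, and WT control (5 libraries) from wild-type mice without the drug. R502W is a missense change in cardiac myosin-binding protein C, which Mybpc3 encodes, and its zygosity, the strain and the sex of the mice were not in the labels. The age of each library is uncertain, because the study's design states 24 weeks and its extraction protocol 3 and 18 weeks. The labels do not say whether libraries of a group came from different mice, and the p-values therefore cover the spread between libraries, which may be technical.

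Noradrenaline and adrenaline drive the heart through G protein-coupled receptors. The β1 receptor couples to the stimulatory G protein and adenylyl cyclase, whose product cyclic AMP activates protein kinase A and raises the rate and force of contraction, while α1 receptors couple to Gq and phospholipase C. Receptor kinases phosphorylate the active receptor and arrestins then bind it, which uncouples it from the G protein. In failing hearts, loss of β1 receptor and gain of receptor kinase activity are the textbook signs of desensitisation.

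Grk5 and Adcy5 were the 2 members that passed the test against WT, and their promoters are shown to give the sequence from which those transcripts start. Promoter windows of 4 of the 8 genes were used here. Each window runs from 250 bases before the start to 50 bases after it (RefSeq, GRCm38.p6), here on the + strand at chr19:60889499-60889798 for Grk5 and chr16:35154614-35154913 for Adcy5. Capitals mark matches to 5 motifs, which were searched on both strands and are spelled out below the sequences.
Grk5: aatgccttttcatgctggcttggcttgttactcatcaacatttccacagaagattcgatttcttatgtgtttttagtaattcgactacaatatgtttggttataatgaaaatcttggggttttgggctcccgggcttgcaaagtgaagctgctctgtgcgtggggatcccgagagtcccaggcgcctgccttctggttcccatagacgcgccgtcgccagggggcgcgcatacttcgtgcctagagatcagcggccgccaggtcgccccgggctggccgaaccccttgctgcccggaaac
Adcy5: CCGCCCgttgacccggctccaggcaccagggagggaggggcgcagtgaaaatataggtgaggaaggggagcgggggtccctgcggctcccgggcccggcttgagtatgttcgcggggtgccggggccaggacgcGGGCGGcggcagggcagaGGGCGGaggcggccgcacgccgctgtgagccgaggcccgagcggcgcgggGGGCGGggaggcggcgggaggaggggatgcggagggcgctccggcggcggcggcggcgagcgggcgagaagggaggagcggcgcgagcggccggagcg
Of 32851 mouse promoter windows of the same length, 13.6% held the TATA box letters TATAAA, and 37.4% held the CAAT box letters CCAAT. The GC box letters GGGCGG were in 35.7% of windows, the E-box letters CACGTG in 7.15%, and TGACG, the core of the cyclic AMP response element, in 20.8%. The Grk5 window held none of the 5 motifs, and 54.3% of its bases were G or C, close to the median of 52.7% over all windows. The Adcy5 window held 4 copies of GGGCGG, and its GC content of 79.0% was above that of 98.6% of windows. These matches describe letters in a window and say nothing of which factors bind there. Adrb1 had 1 window (GC 72.3%) with 1 match each to the CAAT box, the GC box and the cyclic AMP core, and Adra1b had 2 windows, with 3 matches to the CAAT box in the upstream window (GC 42.3%) and 2 to the GC box in the other (GC 71.3%).

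Depth was similar between groups, with total expected counts of 16001651 to 17520706 in R502W mavacamten, 15350622 to 19361103 in R502W control and 15420583 to 18218404 in WT control. Several libraries stood apart in markers of other tissues. WT control replicate 2 held 299 CPM (a count scaled by library size) summed over 6 T cell and thymus markers, against at most 4.82 CPM in any other library. Summed over 6 fat cell markers, R502W mavacamten replicate 4, R502W control replicate 1 and WT control replicates 2 and 3 held 278 to 480 CPM, against 1.41 to 116 CPM elsewhere. Summed over 6 lung epithelium markers, R502W mavacamten replicate 1 and WT control replicates 2 and 3 held 152 to 610 CPM, R502W mavacamten replicate 4 held 25.0 CPM and the other libraries at most 3.95 CPM, and all 3 lung markers that were tested were called lower in R502W control over WT control. Of the 6 atrial muscle markers Bmp10, a growth factor, was at 1.57 to 8.32 CPM in R502W mavacamten replicate 3, R502W control replicate 1 and WT control replicate 3, against 307 to 671 CPM elsewhere. Myl7, the atrial light chain, did not follow it, at 433, 611 and 1242 CPM in those libraries, against 286 to 1063 CPM elsewhere. The 10 cardiomyocyte markers summed to 51981 to 71707 CPM in R502W mavacamten, 56924 to 63116 CPM in R502W control and 39254 to 56776 CPM in WT control, with WT control replicate 2 lowest. Myh6, the main myosin heavy chain of the adult mouse heart, made up 46.2 to 57.5% of these sums, and without it all 3 groups overlapped, at 22630 to 31668 CPM in R502W mavacamten, 24446 to 28048 CPM in R502W control and 19874 to 29245 CPM in WT control. No cardiomyocyte marker was at 0 in any library. In bulk tissue, fewer cells of a type and less RNA per cell cannot be told apart. A missense change cannot be read from gene counts, so Mybpc3 (3819 ± 503 CPM in R502W mavacamten, 3894 ± 247 CPM in R502W control, 2511 ± 300 CPM in WT control, SD) does not check the genotype labels.

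The comparison of R502W control with WT control asked what the mutation changed. Grk5 was 46.2% higher and Adcy5 21.7% higher in R502W control hearts, and the other 6 members did not pass the test. These 2 of 8 members stand beside 12.4% of the 15000 genes called at an edgeR adjusted p under 0.05 in this comparison (8.63% higher, 3.75% lower). The libraries of R502W control and WT control did not overlap for 4 of 8 members (Adra1a, Grk5, Adcy5 and Adcy6), against 17.7% of all genes. An unadjusted edgeR p under 0.05 was reached by 5 of 8 members, against 29.1% of all genes. Fitted log2 fold changes were above 0 for 6 of 8 members, with a median of 0.25 against -0.01 over all genes. The 4 members without overlap have exon totals of 6782 to 8728 bases, above the upper quartile of 6664 over tested genes. Across genes, fold changes in this comparison rose with exon length (rank correlation 0.344). With that trend removed 1 member was called, and the counts of overlap were not repeated.

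The comparison of R502W mavacamten with R502W control asked what the drug changed in mutant hearts. None of the 8 members passed the test, and neither did any other gene with edgeR over all 13 libraries, so the background is 0%. An unadjusted edgeR p under 0.05 was reached by 525 genes (3.5%), among them 1 member, Adra1b. DESeq2 called 6 genes, and edgeR without the 3 libraries rich in lung genes called 7, none of them a member. No member had groups that did not overlap, against 2.87% of all genes, and the median of the members was 0.01 on the log2 scale.

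In R502W mavacamten hearts set against WT control, Grk5 was 37.3% higher and Adcy5 24.3% higher. These 2 of 8 members stand beside 8.21% of genes called in this comparison (5.93% higher, 2.29% lower). Groups did not overlap for 6 of 8 members (Adrb1, Adra1a, Grk2, Grk5, Adcy5 and Adcy6), against 12.3% of all genes, and an unadjusted edgeR p under 0.05 was reached by 6 of 8, against 25.9%. Fold changes rose with exon length here too (rank correlation 0.364), and the part of length in these counts was not tested. This comparison shares its WT libraries with the genotype comparison, and the treatment comparison shares its R502W control libraries with it, so the 3 sets of values are not independent.

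**Figure D1:**
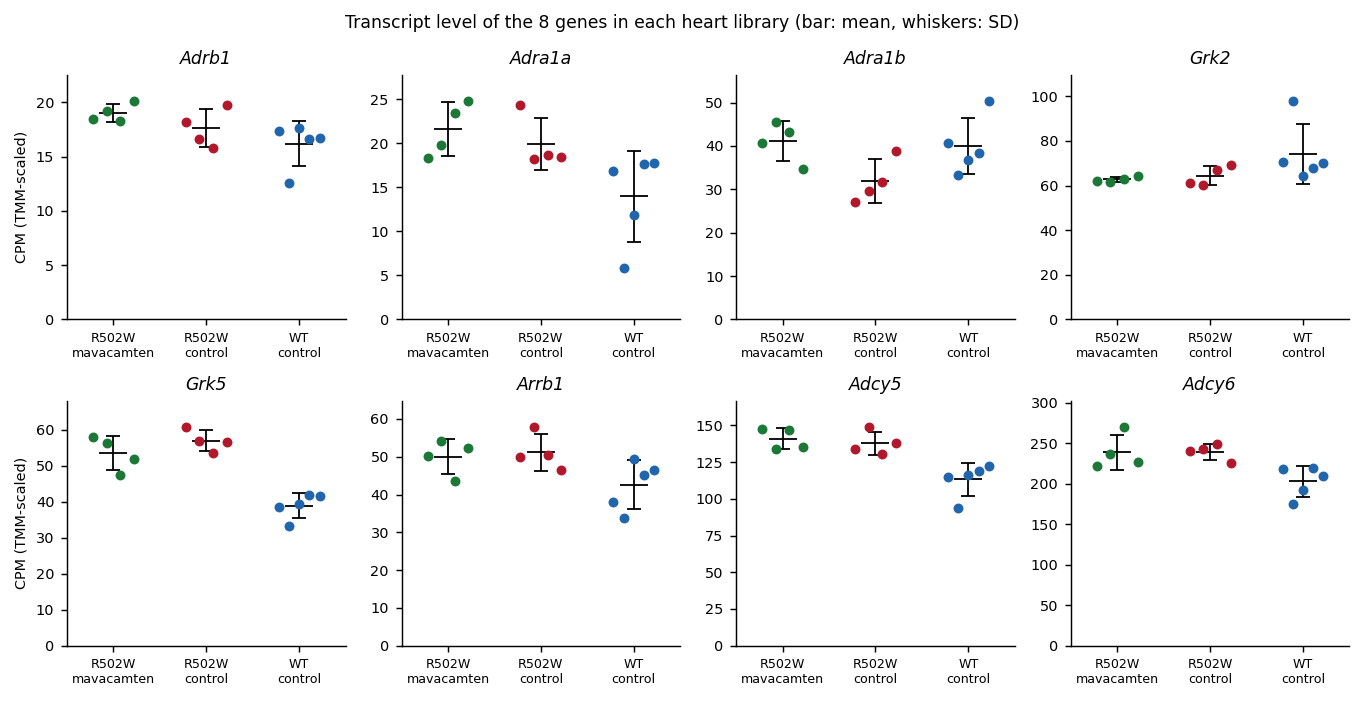
Transcript level of the 8 genes in each library, in CPM on an axis from 0, with R502W mavacamten (4 libraries), R502W control (4) and WT control (5) from left to right, black bars for means and whiskers for SD. All R502W libraries lie above all WT libraries for Grk5 and Adcy5. WT control replicate 2 is the lowest WT point for Adrb1, Adra1a, Adra1b, Grk5, Arrb1, Adcy5 and Adcy6 and the highest for Grk2.

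Adrb1 encodes the β1 receptor, the main β receptor of cardiomyocytes (chromosome 19, 56722199 to 56733113, GRCm38). Its level was 18.5, 19.2, 18.3 and 20.1 CPM in R502W mavacamten, 18.2, 16.7, 15.8 and 19.8 CPM in R502W control, and 17.4, 12.5, 17.7, 16.7 and 16.7 CPM in WT control. All 4 treated libraries lay above all 5 WT libraries, while R502W control overlapped both groups. No difference passed the test: the log2 fold change was 0.12 ± 0.10 (SE) for R502W control over WT control (95% interval -0.10 to 0.34, edgeR adjusted p = 0.465). It was 0.23 ± 0.10 for R502W mavacamten over WT control (edgeR adjusted p = 0.171), and 0.11 ± 0.11 for R502W mavacamten over R502W control (-0.12 to 0.35). Loss of Adrb1 transcript was thus not detected, and the lower bound in R502W control was a log2 fold change of -0.10. The sign named above for failing hearts is loss of the receptor itself, which these transcript counts do not measure. Without WT control replicate 2 the genotype estimate was 0.01 and the treated-against-WT estimate 0.12.

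Adra1a encodes the α1A receptor (chromosome 14, 66635251 to 66771168). It was at 18.3, 19.9, 23.5 and 24.8 CPM in R502W mavacamten, 24.4, 18.3, 18.7 and 18.4 CPM in R502W control, and 16.8, 5.87, 11.8, 17.7 and 17.8 CPM in WT control. Every R502W library lay above every WT library, but WT control replicates 2 and 3 were well below the other 3, whose highest value of 17.8 CPM was close to the lowest R502W value of 18.3 CPM. The log2 fold change was 0.51 ± 0.25 (SE) for R502W control over WT control (edgeR adjusted p = 0.187) and 0.63 ± 0.25 for R502W mavacamten over WT control (edgeR adjusted p = 0.126). Those 2 WT libraries are among the 4 rich in T cell or fat genes. These 4 also include R502W control replicate 1 and R502W mavacamten replicate 4, the highest of their groups (24.4 and 24.8 CPM). Without these 4 the estimates were 0.05 ± 0.10 and 0.21 ± 0.10, so the size of the Adra1a difference rests on the 4 together. Between R502W mavacamten and R502W control it was 0.12 ± 0.26.

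Adra1b, the α1B receptor (chromosome 11, 43774606 to 43901210), had its lowest mean in R502W control. Its level was 40.8, 45.6, 43.1 and 34.8 CPM in R502W mavacamten, 27.1, 29.7, 31.6 and 39.0 CPM in R502W control, and 40.8, 33.4, 36.8, 38.4 and 50.4 CPM in WT control. R502W control replicates 1, 2 and 3 lay below every treated and every WT library, and replicate 4 lay among both. R502W mavacamten over R502W control gave a log2 fold change of 0.37 ± 0.14 (SE, 95% interval 0.07 to 0.66), with an unadjusted edgeR p of 0.019 that ranked 195 of 15000 and an adjusted p of 1.00. R502W control over WT control gave -0.33 ± 0.13 (-0.61 to -0.04, edgeR adjusted p = 0.116). Both estimates use the same 4 R502W control libraries, and neither passed the test. R502W mavacamten over WT control gave 0.04 ± 0.13 (-0.24 to 0.32). Without WT control replicate 2 the genotype difference was -0.42 and passed (edgeR adjusted p = 0.0491), the only 1 of 13 runs without a library that did so.

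The other α receptors were low. Adra1d averaged 3.68 CPM in R502W mavacamten, 4.00 CPM in R502W control and 3.00 CPM in WT control. In the same order of groups Adra2b averaged 0.65, 0.62 and 0.34 CPM, and Adra2c 0.58, 0.58 and 0.61 CPM. Adra2a reached at most 0.54 CPM and did not pass the count filter. None of these 3 tested receptors was called in any comparison. Adrb3, the β receptor best known from fat, ran from 0.06 to 36.7 CPM within R502W mavacamten, from 0.06 to 12.1 CPM within R502W control and from 0.95 to 19.4 CPM within WT control. Its 4 highest libraries (36.7, 12.1, 17.0 and 19.4 CPM) were the 4 with the highest fat marker sums (480, 350, 278 and 436 CPM), and no group difference passed the test.

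**Figure D2:**
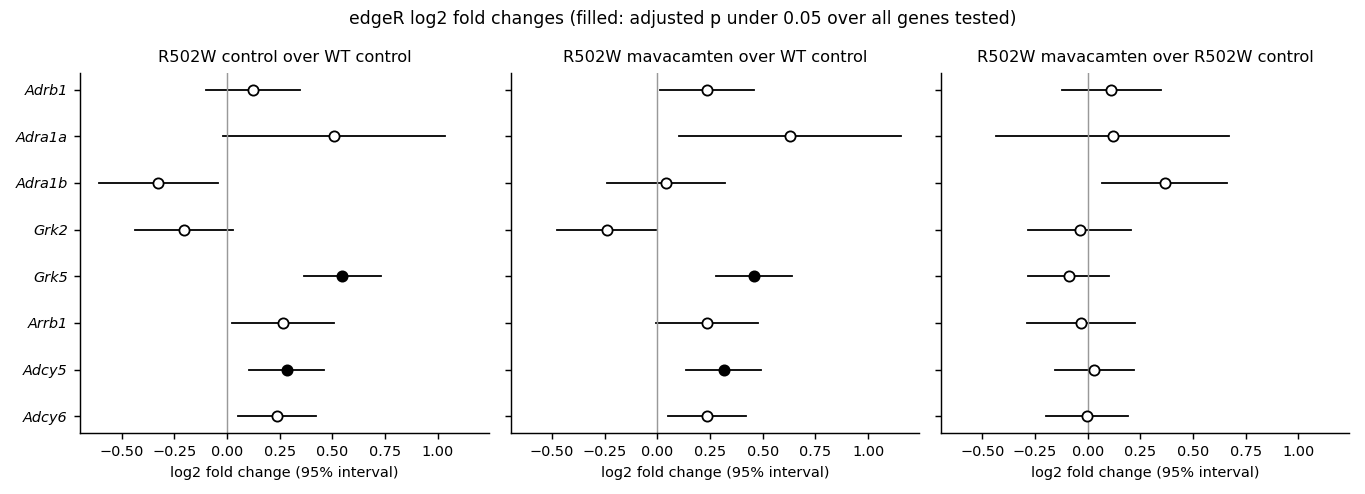
Log2 fold change of each gene with its 95% interval in the 3 comparisons, with filled points for edgeR adjusted p under 0.05 over all 15000 genes. Grk5 and Adcy5 are filled in both comparisons with WT control, Adra1b is the only gene whose interval excludes 0 between R502W mavacamten and R502W control, and no point is filled there.

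Grk5 encodes a membrane-bound receptor kinase that also phosphorylates class II histone deacetylases in the nucleus (chromosome 19, 60889749 to 61095968). Its level was 58.0, 56.5, 47.6 and 52.0 CPM in R502W mavacamten, 60.8, 56.9, 53.7 and 56.6 CPM in R502W control, and 38.7, 33.2, 39.5, 42.0 and 41.6 CPM in WT control. The lowest R502W library, at 47.6 CPM, was above the highest WT library, at 42.0 CPM. R502W control over WT control gave a log2 fold change of 0.55 ± 0.08 (SE, 95% interval 0.37 to 0.73, edgeR adjusted p = 0.00156), which ranked 141 of 15000. R502W mavacamten over WT control gave 0.46 ± 0.08 (0.28 to 0.64, edgeR adjusted p = 0.00912). Between R502W mavacamten and R502W control the estimate was -0.09 ± 0.09 (-0.28 to 0.10), so a treated level more than 0.28 below R502W control on the log2 scale lies outside the interval. The genotype call held in all 13 runs that left out a library, with estimates of 0.46 to 0.58, and the treated call likewise, with 0.37 to 0.49. The treated call ended without the 3 libraries low in Bmp10 (0.50, edgeR adjusted p = 0.0571) and when only those 2 groups were fitted (0.43, edgeR adjusted p = 0.0515). It also ended when the trend with exon length was removed and the replicate number was fitted as a block. Zfp950, at 18.4 CPM on average, overlaps Grk5 on the opposite strand. Whether the counting used strand is not stated, so reads of the overlap cannot be assigned with certainty.

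Grk2, the main cytosolic receptor kinase of the heart (chromosome 19, 4286001 to 4306222), passed in no comparison. It was at 62.1, 61.6, 63.1 and 64.2 CPM in R502W mavacamten, 61.0, 60.4, 67.0 and 69.0 CPM in R502W control, and 70.7, 98.0, 64.4, 67.8 and 70.0 CPM in WT control. WT control replicate 2 was far above all others, and the treated libraries lay just below the lowest WT library. The log2 fold change was -0.20 ± 0.11 (SE) for R502W control over WT control (edgeR adjusted p = 0.228) and -0.24 ± 0.11 for R502W mavacamten over WT control (edgeR adjusted p = 0.179). Without WT control replicate 2 these were -0.12 and -0.15. Between R502W mavacamten and R502W control the estimate was -0.04 ± 0.11. Of the other kinases, Grk3 averaged 28.1 ± 7.33 CPM in R502W mavacamten, 28.5 ± 2.83 CPM in R502W control and 22.9 ± 4.8 CPM in WT control. Grk6 averaged 22.8, 21.5 and 25.2 CPM and Grk4 1.59, 1.56 and 1.42 CPM in that order of groups, and none of the 3 was called.

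The ratio of Grk5 to Grk2 within a library does not depend on how libraries are scaled. Per kilobase of exon it was 0.593, 0.582, 0.479 and 0.514 in R502W mavacamten, 0.632, 0.598, 0.508 and 0.520 in R502W control, and 0.347, 0.215, 0.389, 0.393 and 0.377 in WT control. Every R502W library thus had more Grk5 per Grk2 transcript than any WT library, also with WT control replicate 2 set aside. Grk5 has 7055 exon bases and Grk2 4476, and the part of the trend with exon length in this ratio was not tested. The ratio of Adra1a to Adra1b was 0.174, 0.169, 0.211 and 0.277 in R502W mavacamten, 0.348, 0.238, 0.229 and 0.183 in R502W control, and 0.160, 0.0682, 0.125, 0.178 and 0.137 in WT control. R502W control lay above WT control without overlap, and R502W mavacamten overlapped both. Adra1a has 8728 exon bases and Adra1b 3382, and the part of length was not tested here either. The ratio of Adcy5 to Adcy6 ran from 0.514 to 0.626 in R502W mavacamten, 0.496 to 0.578 in R502W control and 0.497 to 0.570 in WT control, so the balance of these cyclases overlapped across groups.

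**Figure D3:**
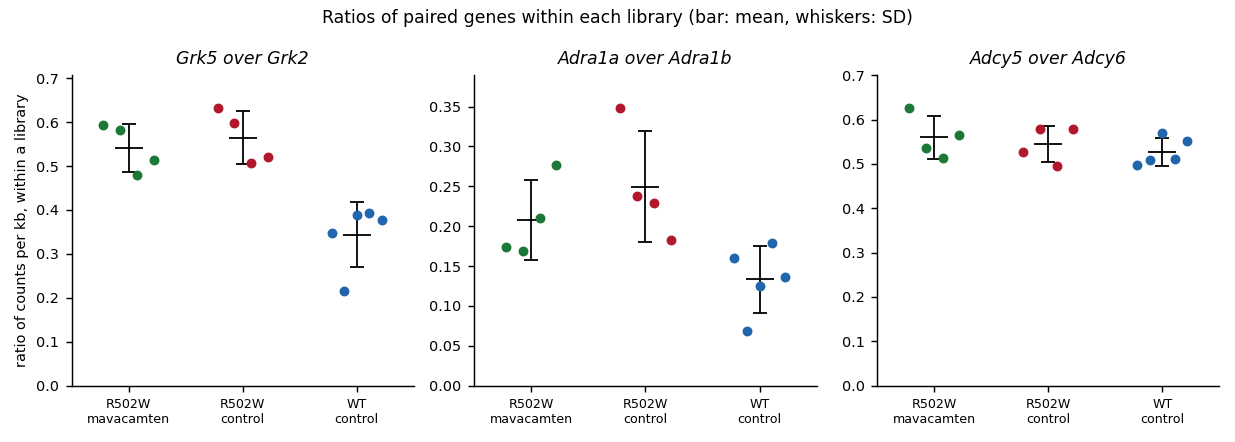
Ratio of length-scaled counts of paired genes within each library, on axes from 0, with R502W mavacamten, R502W control and WT control from left to right, black bars for means and whiskers for SD. Grk5 over Grk2 lies between 0.479 and 0.632 in the R502W libraries and between 0.215 and 0.393 in the WT libraries.

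Arrb1 encodes β-arrestin 1, which binds phosphorylated receptors (chromosome 7, 99535466 to 99606771). It was at 50.1, 54.1, 43.6 and 52.3 CPM in R502W mavacamten, 49.9, 57.9, 50.5 and 46.4 CPM in R502W control, and 38.1, 33.7, 49.4, 45.1 and 46.5 CPM in WT control. The groups overlapped in all 3 comparisons. The log2 fold change was 0.26 ± 0.11 (SE) for R502W control over WT control (edgeR adjusted p = 0.137), 0.23 ± 0.11 for R502W mavacamten over WT control (edgeR adjusted p = 0.209) and -0.03 ± 0.12 for R502W mavacamten over R502W control. Arrb1 has the longest exon total of the members (11175 bases, against a median of 4288 over tested genes). Across genes, fold changes over WT rose with exon length (rank correlation 0.344 for R502W control and 0.364 for R502W mavacamten over 14990 genes, which are not independent), and with that trend removed the Arrb1 estimates were 0.01 and -0.01. Arrb2 averaged 9.90, 9.30 and 11.0 CPM in R502W mavacamten, R502W control and WT control and was not called.

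Adcy5 and Adcy6 encode the principal adenylyl cyclases of the cardiomyocyte, both inhibited by calcium and by Gi. Adcy5 (chromosome 16, 35154877 to 35305738) was at 147, 134, 147 and 135 CPM in R502W mavacamten, 134, 149, 131 and 138 CPM in R502W control, and 115, 93.9, 116, 119 and 123 CPM in WT control. All 8 R502W libraries lay above all 5 WT libraries. R502W control over WT control gave a log2 fold change of 0.28 ± 0.08 (SE, 95% interval 0.11 to 0.46, edgeR adjusted p = 0.0393), and R502W mavacamten over WT control gave 0.31 ± 0.08 (0.14 to 0.49, edgeR adjusted p = 0.0349). The interval between R502W mavacamten and R502W control was -0.16 to 0.22 around 0.03. These calls were close to the threshold: the genotype call held in 2 of 13 runs that left out a library, with estimates of 0.19 to 0.31, and the treated call in 4 of 13, with 0.22 to 0.34. Without WT control replicate 2 the genotype estimate was 0.19 (edgeR adjusted p = 0.0553), and with the length trend removed the estimates were 0.15 and 0.19, neither called. DESeq2 called both.

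Adcy6 (chromosome 15, 98589973 to 98610076) was at 222, 236, 270 and 226 CPM in R502W mavacamten, 240, 243, 249 and 225 CPM in R502W control, and 218, 174, 192, 220 and 210 CPM in WT control. Here too every R502W library lay above every WT library, though the nearest values, 222 and 220 CPM, were almost equal. The log2 fold change was 0.24 ± 0.09 (SE, edgeR adjusted p = 0.0848) for R502W control over WT control, 0.23 ± 0.09 (edgeR adjusted p = 0.108) for R502W mavacamten over WT control, and -0.00 ± 0.09 for R502W mavacamten over R502W control (-0.20 to 0.19). Without the 4 libraries rich in T cell or fat genes the differences from WT were 0.12 and 0.14. Among the 10 cardiomyocyte markers, Ttn and Ryr2 were called higher in R502W control over WT control, and these and Myh6 in R502W mavacamten over WT control. Fitted values of 6 of the 10 (Tnnt2, Tnni3, Myl2, Pln, Ckm and Cox6a2) were below 0 in R502W control over WT control, none called, and the median over the 10 was -0.07 there and 0.06 in R502W mavacamten over WT control. Their part in the cyclase results, and in those of the wider signalling list, was not tested. The antisense gene Gm29331 overlaps Adcy6 and averaged 1.93 CPM.

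Among the other cyclases, Adcy4, known from endothelium, was higher in both R502W groups. It averaged 29.2 ± 1.56 CPM in R502W mavacamten, 28.5 ± 4.70 CPM in R502W control and 21.8 ± 1.36 CPM in WT control (SD). The log2 fold changes over WT control were 0.39 ± 0.10 for R502W control (SE, edgeR adjusted p = 0.0254) and 0.42 ± 0.10 for R502W mavacamten (edgeR adjusted p = 0.0263), and these calls held in 8 and in 9 of 13 runs that left out a library. Endothelial markers summed to 973 to 1030 CPM in R502W mavacamten, 971 to 1214 CPM in R502W control and 878 to 1130 CPM in WT control. Fabp4, which fat cells also express, made up 21.0 to 52.0% of these sums, and without it they were 551 to 763 CPM in R502W mavacamten, 722 to 855 CPM in R502W control and 472 to 634 CPM in WT control. Of the 6 markers, Kdr and Cldn5 were called higher in R502W control over WT control (median log2 fold change of the 6, 0.36) and Kdr in R502W mavacamten over WT control (median 0.18). The part of these markers in the Adcy4 result was not tested. Without the 3 libraries rich in lung genes the Adcy4 estimates were 0.35 and 0.42, neither called. Adcy7, known from blood cells, averaged 23.5, 27.7 and 20.3 CPM in R502W mavacamten, R502W control and WT control and was called in the genotype comparison (0.44 ± 0.13, edgeR adjusted p = 0.0424), a call kept in 3 of 13 runs without a single library. Adcy9 averaged 28.4 ± 4.30 CPM in R502W mavacamten, 29.3 ± 1.96 CPM in R502W control and 17.4 ± 7.87 CPM in WT control without passing (edgeR adjusted p = 0.101 for R502W control over WT control). Adcy1 averaged 27.4, 27.9 and 18.6 CPM, Adcy3 9.65, 9.10 and 9.57 CPM, and Adcy8 0.53, 0.89 and 0.96 CPM in the same order, and none was called. Adcy2 and Adcy10 did not pass the count filter. The cyclase-associated proteins Cap1 (55.6, 56.7 and 64.2 CPM) and Cap2 (158, 148 and 133 CPM) were not called either.

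Levels of different genes can be set against each other only when scaled by length. Per kilobase of exon, Adcy6 had the highest level in every group, at 35.2 CPM per kb in R502W mavacamten, 35.3 in R502W control and 29.9 in WT control. Adcy5 followed in R502W mavacamten and R502W control (19.6 and 19.2 CPM per kb), ahead of Grk2 (14.0 and 14.4), Adra1b (12.1 and 9.42), Grk5 (7.59 and 8.08), Adrb1 (5.63 and 5.21), Arrb1 (4.48 and 4.58) and Adra1a (2.48 and 2.28). In R502W mavacamten no neighbours in this order overlapped. Adra1b overlapped Grk5, and Adrb1 overlapped Arrb1, in R502W control. WT control had Grk2 (16.6) ahead of Adcy5 (15.8), then Adra1b (11.8), Grk5 (5.53), Adrb1 (4.78), Arrb1 (3.81) and Adra1a (1.60 CPM per kb). There Grk2 overlapped Adcy5, Adcy5 overlapped Adra1b, Grk5 overlapped Adrb1, and Adrb1 overlapped Arrb1. With the length of the longest transcript in place of all exons, 17 of 24 places were the same. On that scale neighbours did overlap in R502W mavacamten, Grk5 with Arrb1 and Arrb1 with Adrb1.

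**Figure D4:**
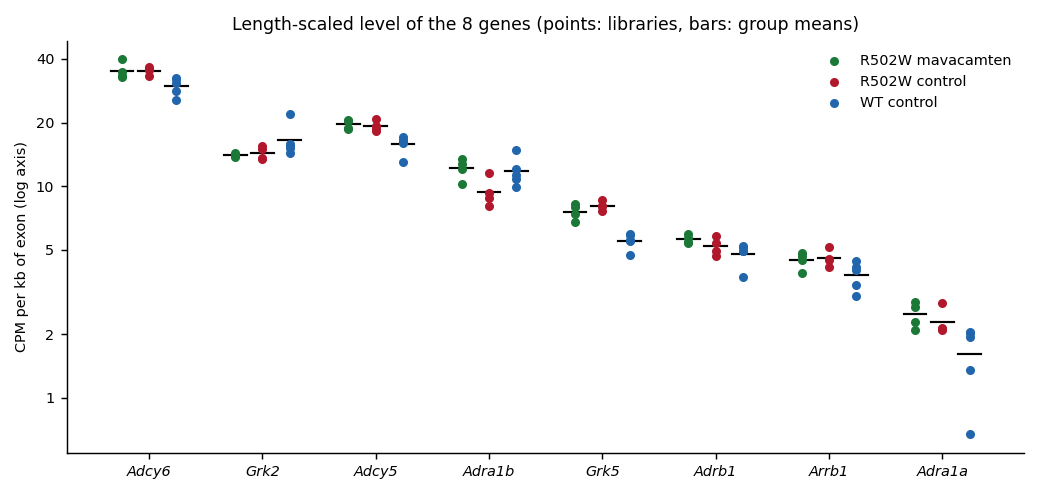
Length-scaled level of each gene, in CPM per kilobase of exon on a log axis, with a point for each library and a bar for each group mean, ordered by the WT control mean. Adcy6 is highest and Adra1a lowest in each of the 3 groups.

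Downstream and neighbouring genes were read from a list of 135 adrenergic and cyclic AMP signalling genes that includes the 8 members, of which 129 were tested. In R502W control over WT control 20 were higher and 1 lower, which is 16.3% of those tested, with a median log2 fold change of 0.14. None passed between R502W mavacamten and R502W control (median -0.01), and 12 were higher and none lower in R502W mavacamten over WT control, 9.30% of those tested (median 0.12). These shares stand beside the 12.4%, 0% and 8.21% of all genes called.

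The A-kinase anchors, scaffolds that hold protein kinase A near its targets, held the most genotype calls of any group of the list, 5 of 10, all higher in R502W control. This count stands beside 12.4% of all genes called, and the anchors are put first here because of it. Akap9 averaged 59.6 ± 11.0 CPM in R502W mavacamten, 60.4 ± 3.55 CPM in R502W control and 36.0 ± 6.22 CPM in WT control (SD). Its log2 fold change over WT control was 0.74 ± 0.14 in R502W control (SE, edgeR adjusted p = 0.00506) and 0.73 ± 0.14 in R502W mavacamten (edgeR adjusted p = 0.0111). Akap6, which anchors the kinase at the nuclear envelope, averaged 232, 249 and 148 CPM in R502W mavacamten, R502W control and WT control (0.75 ± 0.19, edgeR adjusted p = 0.0192 for R502W control; 0.65 ± 0.19, edgeR adjusted p = 0.0466 for R502W mavacamten). Akap1, the mitochondrial anchor, was higher in R502W control (0.45 ± 0.12, edgeR adjusted p = 0.0315). Of 11 genes of protein kinase A and Epac, 3 were called higher in R502W control, also beside 12.4% of all genes called. They were the regulatory subunits Prkar1a (0.43 ± 0.10, edgeR adjusted p = 0.0156) and Prkar2a (0.48 ± 0.14, edgeR adjusted p = 0.0342) and the catalytic subunit Prkacb (0.29 ± 0.08, edgeR adjusted p = 0.0319). Prkar1a (0.37 ± 0.10, edgeR adjusted p = 0.0394) and Prkacb (0.28 ± 0.08, edgeR adjusted p = 0.0489) were also called in R502W mavacamten over WT control.

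Among 13 kinase A substrates and phosphatase regulators, 3 were called higher in R502W control and none lower, beside 12.4% of all genes called. The median log2 fold change of the 13 over WT control was -0.02 in R502W control and -0.002 in R502W mavacamten. Rrad, an inhibitor of the L-type calcium channel through which β stimulation acts, averaged 179 ± 47.6 CPM in R502W mavacamten, 217 ± 30.5 CPM in R502W control and 113 ± 12.3 CPM in WT control. Its log2 fold change over WT control was 0.94 ± 0.16 in R502W control (edgeR adjusted p = 0.00336) and 0.66 ± 0.16 in R502W mavacamten (edgeR adjusted p = 0.0285). Ryr2, the calcium release channel, was higher by 0.86 ± 0.22 (edgeR adjusted p = 0.021) and 0.80 ± 0.22 (edgeR adjusted p = 0.0385) in R502W control and R502W mavacamten, and Mybpc3 by 0.63 ± 0.12 (edgeR adjusted p = 0.00461) and 0.61 ± 0.12 (edgeR adjusted p = 0.0111). Creb1, the cyclic AMP-responsive transcription factor, was higher by 0.37 ± 0.07 in R502W control (edgeR adjusted p = 0.00581) and 0.29 ± 0.07 in R502W mavacamten (edgeR adjusted p = 0.0275). Crtc1, its coactivator, was higher in R502W control (0.33 ± 0.09, edgeR adjusted p = 0.0349). Calls among the 12 CREB family and cyclic AMP-responsive genes came to 16.7% in R502W control and 8.33% in R502W mavacamten over WT control. Over all genes these shares were 12.4% and 8.21%.

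On the Gq side, Gnaq, the G protein subunit that α1 receptors use, was higher in R502W control over WT control (0.47 ± 0.14, edgeR adjusted p = 0.0448), as was protein kinase C α, Prkca (0.42 ± 0.12, edgeR adjusted p = 0.0322). Gnaq was 1 of 20 G protein subunits called (5%), and Prkca 1 of 10 phospholipase C and protein kinase C genes (10%). Both shares are below the 12.4% of all genes called. Of 8 RGS proteins, which regulate G protein signalling, only Rgs12 was called in R502W control over WT control, and it was higher (0.44 ± 0.13, edgeR adjusted p = 0.0437). That is 12.5% of the 8, near the share of all genes called, and the median log2 fold change of the 8 was -0.28. Gna13 was higher in R502W mavacamten over WT control (0.55 ± 0.15, edgeR adjusted p = 0.0419), with R502W mavacamten replicate 4 at 72.1 CPM and the other 3 at 40.2 to 44.4 CPM, and without that library the estimate was 0.27 and not called. It was 1 of 20 G protein subunits called in that comparison (5%, beside 8.21% of all genes). Gnas, the stimulatory subunit that couples β receptors to cyclase, averaged 847 ± 48.3 CPM in R502W mavacamten, 855 ± 37.1 CPM in R502W control and 875 ± 42.0 CPM in WT control and was not called. None of 11 other cardiac receptors that act through Gs or Gi was called. In catecholamine handling, Maob, a monoamine oxidase, fell by 0.48 ± 0.11 on the log2 scale in R502W control (53.8, 46.9 and 65.3 CPM in R502W mavacamten, R502W control and WT control, edgeR adjusted p = 0.0134) and was the only gene of the list called lower. Of 9 tested genes of catecholamine handling it was the 1 called there (11.1%, beside 12.4% of all genes). With 1 library left out at a time, the genotype calls of Akap9, Rrad, Mybpc3, Creb1 and Maob held in all 13 runs, those of Prkar1a, Akap6 and Ryr2 in 11 (lost without R502W control replicate 2 or 3), and those of the others named in 2 to 8. Of the calls of R502W mavacamten over WT control, those of Akap9 and Mybpc3 held in all 13 runs and those of the others named in 1 to 9. Removing the trend with exon length ended the genotype calls of Creb1, Maob, Ryr2, Adcy7, Gnaq, Prkacb, Prkar2a, Prkca, Rgs12 and Crtc1. Some of these estimates moved little, such as Maob (-0.40), Gnaq (0.39) and Prkar2a (0.39), while Ryr2 came to 0.36, Prkacb to 0.11, Crtc1 to 0.07 and Creb1 to 0.05. Of the calls of R502W mavacamten over WT control it ended those of Prkar1a, whose estimate was almost the same (0.36, edgeR adjusted p = 0.0535), Gna13 (0.45), Akap6 (0.34), Ryr2 (0.31), Akap9 (0.29), Prkacb (0.10) and Creb1 (-0.02). Th, the enzyme that makes catecholamines in nerves, stayed at or below 0.48 CPM and did not pass the count filter.

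**Figure D5:**
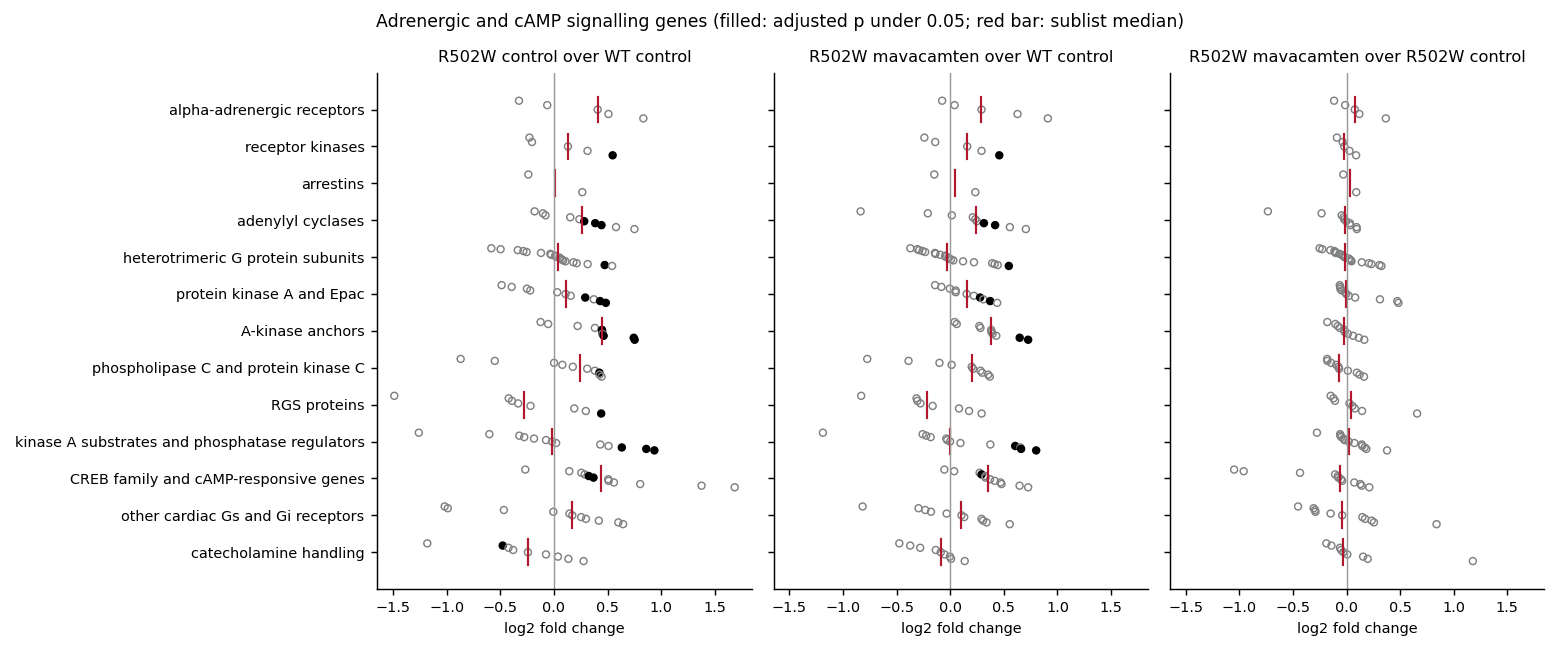
Log2 fold change of the tested genes of the adrenergic and cyclic AMP list, β receptors left out, by group of genes, in the 3 comparisons, with filled points for edgeR adjusted p under 0.05 and red bars for medians. R502W control over WT control has 21 filled points, R502W mavacamten over WT control 12 and R502W mavacamten over R502W control none, and the A-kinase anchors hold 5 of the 21.

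The genes whose level across the 13 libraries was most like that of each member were ranked by Pearson r of log2 CPM over 13696 genes, as a description. Grk5 was most like Armcx4 (r = 0.975), Slc8a2, a sodium-calcium exchanger (0.966), and Slmap, a sarcolemmal membrane protein (0.964). With group means removed these were 0.911, 0.842 and 0.770. Adcy6 was most like Ecpas (0.982), the desmosomal plaque gene Dsp (0.976) and Zfp971 (0.972), and Adcy5 like Gm37240 (0.977), Hip1 (0.958) and Jmy (0.955). Grk2 was like the ribosomal protein gene Rpl32 (0.959) and Maz (0.956), and Adra1a had Rbm33 (0.979), Gm48271 (0.970) and Ccdc186 (0.968). For Adrb1 they were Bcl9l (0.926), Gm43980 (0.917) and Zfp26 (0.910), and for Arrb1 App (0.945), Mtmr1 (0.934) and Dchs2 (0.932). Adra1b had the lowest values, with A130010J15Rik (0.902), Rgma (0.859) and Epb41l3 (0.858). All genes of a library share its depth and its mix of tissue, WT control replicate 2 among them.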

How the data were processed

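Poly(A)-enriched, strand-specific libraries were made from whole hearts, per the labels' protocols. The deposited values are expected counts per Ensembl gene, which the authors estimated with RSEM on GRCm38, per the submitters' processing notes, which also name cutadapt, FastQC and DESeq2 without versions. Of all values 5.76% were fractional, and counts were rounded to whole numbers. Symbols, coordinates and exon lengths came from GENCODE M21 (GRCm38), which matched 55230 of 55471 IDs. No pair of libraries of a group agreed within sampling noise (chi-square per degree of freedom 7.31 to 103 over 22 pairs).

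Genes were filtered by filterByExpr (minimum count 10, minimum total 15), scaled by TMM and fitted with 1 mean per group over all 13 libraries by the quasi-likelihood test of edgeR 4.0.16 in R 4.3.3. P-values were adjusted by Benjamini-Hochberg over 15000 genes, with a threshold of 0.05. The biological coefficient of variation was 0.232. CPM use TMM-scaled library sizes. Member counts per library ran from 98 to 4425, which bounds counting precision. The test was also run on simulated counts with known changes. Those counts held no differences in tissue mix between libraries, so that run does not cover such differences.

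The members and the gene lists were chosen with earlier results of these data known. All members are named, with every adrenergic receptor, receptor kinase, arrestin and cyclase, and of other groups of the list the 3 called genes with the smallest adjusted p, and look-alike genes are the 3 with the highest r at a mean of at least 1 CPM (pseudocount 0.5). Genes that this rule names but that are not reported here were left out of the text. Gnas and Th were added after their values were seen.

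Alternatives were RLE factors, no filter, DESeq2 1.42.0, fitting only the 2 groups compared, the replicate number as a block, removal of the trend with exon length (with and without the block), and leaving out each library. Leaving out the 3 libraries low in Bmp10, the 4 rich in T cell or fat genes, or the 3 rich in lung epithelium genes, was added after seeing the data.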

Additional observations from a re-analysis of the deposited data

Results flagged for a closer look

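Among 78 groups of 4 or 5 libraries checked for the genes named in the report, 11 had a library far from the others of its group, where chance gives about 1 in 20, and 6 of the 11 are WT control replicate 2. Of the members, Adcy5 was lowest there, at 93.9 CPM against 115 to 123 CPM in the other WT libraries, Adrb1 was lowest there, at 12.5 CPM against 16.7 to 17.7 CPM, and Grk2 was highest there, at 98.0 CPM against 64.4 to 70.7 CPM. Adra1a, Adra1b, Grk5, Arrb1 and Adcy6 were also lowest of WT control there, though not far enough to be flagged. The same library was lowest of WT control for Akap1 (97.8 CPM against 140 to 151 CPM), Akap9 (25.1 CPM against 36.9 to 40.3 CPM) and Gnaq (15.3 CPM against 25.0 to 27.1 CPM). It also held the T cell and thymus markers at 299 CPM, and their part in these levels was not tested.

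Adra1a was highest in R502W control replicate 1, at 24.4 CPM against 18.3 to 18.7 CPM in the other R502W control libraries. Gnaq was also lowest in R502W mavacamten replicate 1 (28.4 CPM against 33.4 to 34.2 CPM) and in R502W control replicate 4 (27.7 CPM against 34.4 to 35.6 CPM). Gna13 was highest in R502W mavacamten replicate 4 (72.1 CPM against 40.2 to 44.4 CPM). Creb1 was lowest in R502W control replicate 3, at 23.7 CPM against 24.5 CPM in the other 3, a narrow range.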

How the results depend on the processing

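The Grk5 genotype call was kept under every alternative run, with estimates of 0.42 to 0.57 on the log2 scale and 0.46 to 0.58 without a library. Members called in the genotype comparison (2) were 1 with RLE factors, no filter, only the 2 groups fitted, the replicate block, the length trend removed, both of these together, and without each of the 3 added sets of libraries, and 1 to 2 without each library in turn. Without WT control replicate 2 the 2 were Grk5 and Adra1b. Members called in R502W mavacamten over WT control (2) were 1 with RLE factors, no filter, the replicate block, the length trend removed, without the libraries rich in T cell or fat genes and without those rich in lung genes. They were 0 with only those groups fitted, with length trend and block together (Grk5 0.35, edgeR adjusted p = 0.0694) and without the libraries low in Bmp10, and 1 to 2 without each library in turn.

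Genes called in the genotype comparison (1856, of which 1294 higher and 562 lower) were 963 with the replicate block, 623 with block and length trend, 404 without the libraries low in Bmp10, 1145 without those rich in T cell or fat genes, and 866 (without R502W control replicate 2) to 1870 (without WT control replicate 2) without each library. DESeq2 split them into 1403 higher and 1082 lower. In R502W mavacamten over WT control (1232, of which 889 higher and 343 lower) they were 740 without a filter, 216 with only those groups, 349 with the block, 627 with the length trend removed, 150 with both, 86 without the libraries low in Bmp10, 653 without those rich in T cell or fat genes, 614 without those rich in lung genes, and 359 (without R502W mavacamten replicate 2) to 1213 (without WT control replicate 2) without each library, with 668 higher and 413 lower under RLE factors. Between R502W mavacamten and R502W control DESeq2 called 6 genes, edgeR called 7 without the libraries rich in lung genes, and each other edgeR run called 0.

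Genes called of the signalling list in the genotype comparison (21) were 9 without a filter, 11 with only those groups, 10 with the block, 11 with the length trend removed, 3 with both, 4 without the libraries low in Bmp10, 13 without those rich in lung genes, and 6 (without R502W control replicate 2) to 25 (without WT control replicate 5). In R502W mavacamten over WT control (12) they were 7 with RLE factors, 5 without a filter, 20 with DESeq2, 1 with only those groups, 2 with the block, 5 with the length trend removed, 1 with both, 0 without the libraries low in Bmp10, 7 without those rich in T cell or fat genes, 5 without those rich in lung genes, and 3 to 14 without each library.

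Estimates near 0 that changed sign, none of them called except where stated, were these. Between R502W mavacamten and R502W control, Grk5 was 0.0082 and Arrb1 0.032 without the libraries low in Bmp10, and Arrb1 ran from -0.075 to 0.043 without each library. Adcy6 was 0.00011 without a filter, 0.0070 with only those groups, 0.0012 with the length trend removed, 0.00028 with block and length trend, 0.020 without the libraries rich in T cell or fat genes, 0.030 without those rich in lung genes, and -0.054 to 0.029 without each library. In R502W mavacamten over WT control, Adra1b was -0.027 and -0.029 without the libraries low in Bmp10 and without those rich in T cell or fat genes, -0.097 without those rich in lung genes, and -0.050 to 0.14 without each library. Arrb1 was -0.0094 with the length trend removed, and Creb1, called in the fit given in the report, was -0.025 with it removed and -0.049 with the block as well. The cause of these changes was not tested.

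Replicate numbers did not pair the libraries: deviations of same-numbered libraries correlated at -0.336 to -0.032 between R502W control and WT control, -0.150 to 0.264 between R502W mavacamten and R502W control, and -0.314 to 0.035 between R502W mavacamten and WT control. With the replicate block, Adcy5 was 0.32 (edgeR adjusted p = 0.0865) in the genotype comparison and 0.35 (edgeR adjusted p = 0.0902) in R502W mavacamten over WT control. With 4 or 5 libraries a group, a difference that was not called may still be present, and the smallest detectable difference is not given here. The 95% intervals are not such a limit, because they are not adjusted for the number of genes tested. In R502W control over WT control, Adra1b had an interval of -0.61 to -0.04 and was not called (edgeR adjusted p = 0.116). Arrb1, with 0.02 to 0.51 in the same comparison, was not called either (edgeR adjusted p = 0.137).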
